A study of Nothobranchius furzeri with 9 samples.

Results

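The activin, inhibin and follistatin system was described in liver RNA of the African turquoise killifish (Nothobranchius furzeri), a vertebrate with a very short life span. The genes are INHBC, identified by its gene ID, and every gene of the deposited table whose name marks it as an inhibin subunit, follistatin, follistatin-like 3 or activin receptor. This gave 14 of 25475 genes. INHBC was singled out because of its measured levels at the 3 ages in these same libraries, so its values are given as a description with no test, while the other 13 genes were taken by name. All fish were wild-type males of the inbred GRZ strain, with no agent named in the labels. Fish called young were 6 weeks old, adult ones 12 weeks and old ones 23 to 24 weeks, with 3 libraries for each age. Nothing but the labels says that replicates are separate fish, so p-values measure only the spread between these libraries.

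Activins are secreted dimers of inhibin beta chains, and inhibins pair a beta chain with the alpha chain and oppose activins. Activin binds a type II receptor, which recruits and phosphorylates a type I receptor, and this passes the signal to SMAD proteins that enter the nucleus. Follistatin and follistatin-like 3 bind activins and keep them from the receptor. In mammals the beta C and beta E chains are made mainly in the liver.

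The libraries held 19600325 to 33951438 estimated counts. Levels are given as CPM, counts scaled to the library size after TMM adjustment. All 12 hepatocyte markers had counts, with summed levels of 172900 to 185800 CPM in young, 207400 to 233700 in adult and 144700 to 251700 in old libraries. Exocrine pancreas markers (16 of 17 with counts, cpa4 at 0) summed to 7256 to 80310 CPM in adult libraries and to 831 to 2568 CPM in the others. Genes annotated as ribosomal RNA took 29.65% of the counts of young replicate 1 and 4.52 and 4.74% of the other young libraries. They took 2.22 to 2.51% in adult and 7.07 to 21.98% in old libraries. Young replicate 1 stood apart from its group, with a correlation of log2 CPM of 0.753 and 0.808 with the other young libraries, against 0.904 between those. Its correlations were 0.75, 0.769 and 0.776 with adult replicates 1 to 3 and 0.795, 0.82 and 0.819 with old replicates 1 to 3.

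Of the beta chain genes of this liver, INHBC reached the highest level in any library, 52.3 CPM, followed by INHBB on sgr08 at 5.94 CPM. On average INHBC was high in young fish, lower in adult fish and almost absent in old fish. Young replicates 1, 2 and 3 had 3.06, 21.9 and 52.3 CPM (56, 991 and 1490 counts). Adult replicates 1, 2 and 3 had 2.85, 7.64 and 0.802 CPM (69, 170 and 20 counts). Old replicates 1, 2 and 3 had 0, 0.101 and 0 CPM, which is 2 counts in all. Young and adult libraries overlapped, since young replicate 1 lay between 2 adult libraries, whereas every young and adult library lay above every old one. Over all 13971 genes tested, the libraries of the 2 ages did not overlap in 21.7% between young and adult, 40.7% between adult and old and 15.6% between young and old, and INHBC, chosen on its values, was among these in the last 2 comparisons. A count of 0 allows up to 0.168 CPM in old replicate 1 and 0.139 CPM in old replicate 3.

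The mean level of INHBC was 25.7 ± 24.8 CPM in young, 3.76 ± 3.51 in adult and 0.0338 ± 0.0586 in old fish (SD, n = 3 per age). The summed counts, divided by the summed library sizes, were 7.59 times higher in young than in adult fish (95% interval 6.68 to 8.66). They were 107 times higher in adult than in old fish (29.4 to 889) and 814 times higher in young than in old fish (225 to 6720). These exact intervals cover counting error only and not the spread between libraries, which within the young age alone ran from 3.06 to 52.3 CPM. Both counts in old fish lie in old replicate 2, without which the fitted log2 fold changes, which are then no bound, moved from -6.59 to -9.58 against adult and from -9.37 to -12.35 against young fish. The fitted log2 fold change between adult and young fish was -2.78 ± 1.04 (SE), and it was -1.73 without young replicate 3 and -3.82 without adult replicate 2. In young replicate 1, the lowest young library for INHBC, the ribosomal RNA share was 29.65%. It was 4.52 and 4.74% in young replicates 2 and 3 and 21.98, 15 and 7.07% in old replicates 1 to 3. In adult replicates 1 to 3 it was 2.22, 2.51 and 2.38%, beside 2.85, 7.64 and 0.802 CPM of INHBC. The summed level of stellate cell and fibroblast markers, all 19 with counts, was also lowest in the old libraries. The markers summed to 242, 127 and 1493 CPM in young replicates 1 to 3, to 458, 257 and 234 CPM in adult and to 76.3, 79.9 and 95.8 CPM in old ones. The collagen genes col1a1b and COL1A2 gave 754 and 628 CPM of the sum in young replicate 3, and each was lowest in the old libraries. The next most abundant marker, COL6A2, overlapped between young and old libraries, with 16.1 CPM in young replicate 2 and 17.6 CPM in old replicate 1. The part of these markers and of ribosomal RNA in the INHBC levels was not tested, and in bulk liver fewer cells of a type and less RNA per cell cannot be told apart.

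**Figure D1:**
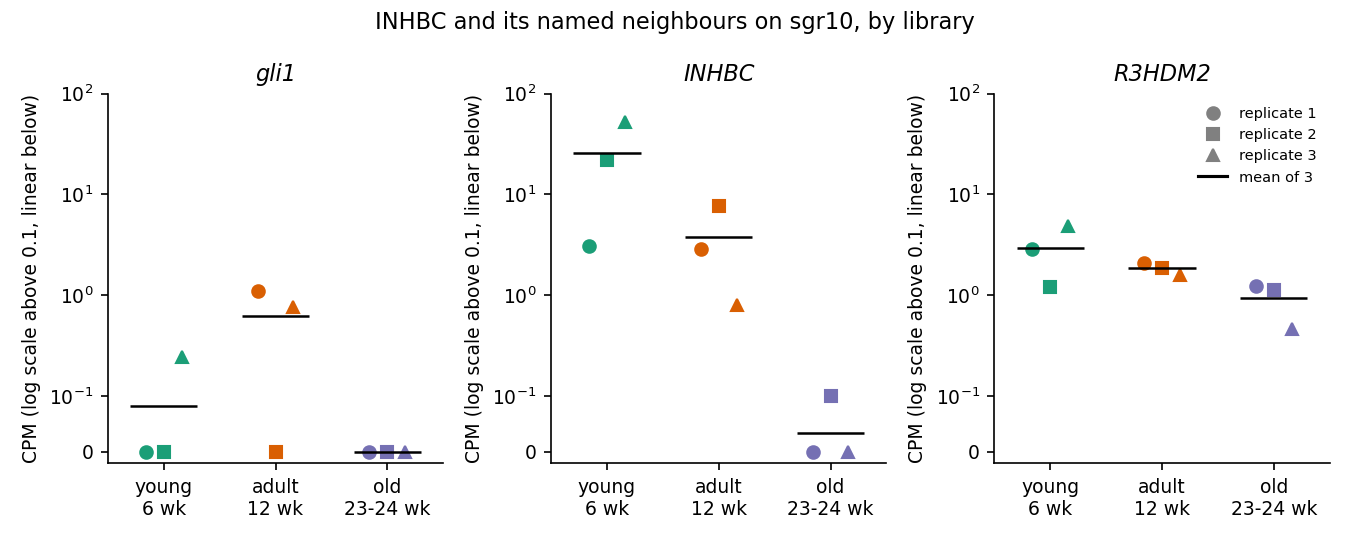
Level in CPM (log scale above 0.1, linear below) of gli1, INHBC and R3HDM2 in each library at the 3 ages; symbols mark the replicate and bars the mean of 3. INHBC runs from 52.3 CPM in young replicate 3 to 0 in old replicates 1 and 3. R3HDM2 runs from 4.8 CPM in young replicate 3 to 0.464 CPM in old replicate 3.

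INHBC lies between genes named gli1 and R3HDM2, whose human namesakes flank the beta C and beta E genes. Whether INHBC is the counterpart of either human gene was not tested. INHBC (ENSNFUG00015020646) lies on sgr10 from 31474460 to 31476377 on the minus strand, in coordinates of the deposited table, whose genome build is not given in the sources used here. The table names the gene INHBC and describes it as inhibin beta B chain-like, and RefSeq lists the same Entrez number with a locus number in place of a symbol. On one side gli1, a transcription factor of hedgehog signalling, lies 63.6 kb away. On the other side R3HDM2, which encodes an R3H domain protein, lies 136.4 kb away.

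The neighbouring genes were low, apart from the nearest one in young replicate 1, and did not pass the edgeR test in any comparison in which they were tested. R3HDM2 had 2.84, 1.21 and 4.8 CPM in young, 2.1, 1.84 and 1.6 CPM in adult and 1.23, 1.12 and 0.464 CPM in old replicates 1 to 3. Old against young fish it gave a log2 fold change of -1.65 ± 0.71 (edgeR adjusted p = 0.305), and the 2 ages overlapped. Its adult libraries all lay above its old ones (log2 fold change -0.98 ± 0.7, edgeR adjusted p = 0.421). Adult and old libraries did not overlap in 40.7% of all genes tested. The gene gli1 was too low to be tested, with 53 counts in all, and had none in the old libraries. The nearest gene, ENSNFUG00015020649, has no name or description in the table and starts 3.9 kb from INHBC on the opposite strand. It had 25.8 CPM in young replicate 1 and at most 1.82 CPM in each other library, so it was high in the young library in which INHBC was lowest. The log2 fold change of this gene for adult against young was -6.71 ± 2.07 (edgeR adjusted p = 0.349).

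The other subunit genes were low or without counts. The alpha chain gene inha (sgr04, 26284264 to 26285422), needed for any inhibin, and the beta A gene INHBAA had no count in any library, which allows up to 0.0135 CPM over all 9. A 2nd beta A gene, INHBA, called inhbab in RefSeq, had 1 count in adult replicate 3 and 5 in old replicate 1. Of the 2 genes named INHBB, the one on sgr10 (3346539 to 3349112) had 1 count in all.

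The INHBB gene on sgr08 (ENSNFUG00015005925, 34210833 to 34216753), which encodes a beta B chain, was the only other subunit gene with enough counts to test. Young replicates 1 to 3 had 0.327, 0.177 and 0.877 CPM, adult ones 0.825, 1.84 and 2.29 CPM, and old ones 0, 2.18 and 5.94 CPM. The means were 0.46 ± 0.369, 1.65 ± 0.749 and 2.71 ± 3.00 CPM, and the ages overlapped in all 3 comparisons. The old libraries held both the lowest and the highest value, and young and adult libraries overlapped through young replicate 3 and adult replicate 1. The log2 fold change was 1.84 ± 1.35 for adult against young (edgeR adjusted p = 0.701), 0.71 ± 1.30 for old against adult (0.774) and 2.55 ± 1.38 for old against young (0.42). The old against adult value had the opposite sign without old replicate 3 (-0.61) and in limma-voom (-0.96).

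On a scale per gene length (TPM, as deposited), INHBC made up most of the beta chain transcripts in young fish and little of them in old fish. Its share of the summed TPM of the 5 beta chain genes was 96.3, 99.7 and 99.3% in young replicates 1 to 3 and 89.6, 90.9 and 45.5% in adult ones. In old replicates 1 to 3 it was 0, 10.9 and 0%. The summed beta chain level was 2.69, 28.8 and 66.4 TPM in young, 2.85, 8.79 and 1.72 TPM in adult and 0.23, 0.859 and 2.04 TPM in old libraries. In old replicates 2 and 3 the rest was INHBB on sgr08, at 0.765 and 2.04 TPM. As a share, this value follows from INHBC, which was chosen on its levels, and is a description.

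**Figure D2:**
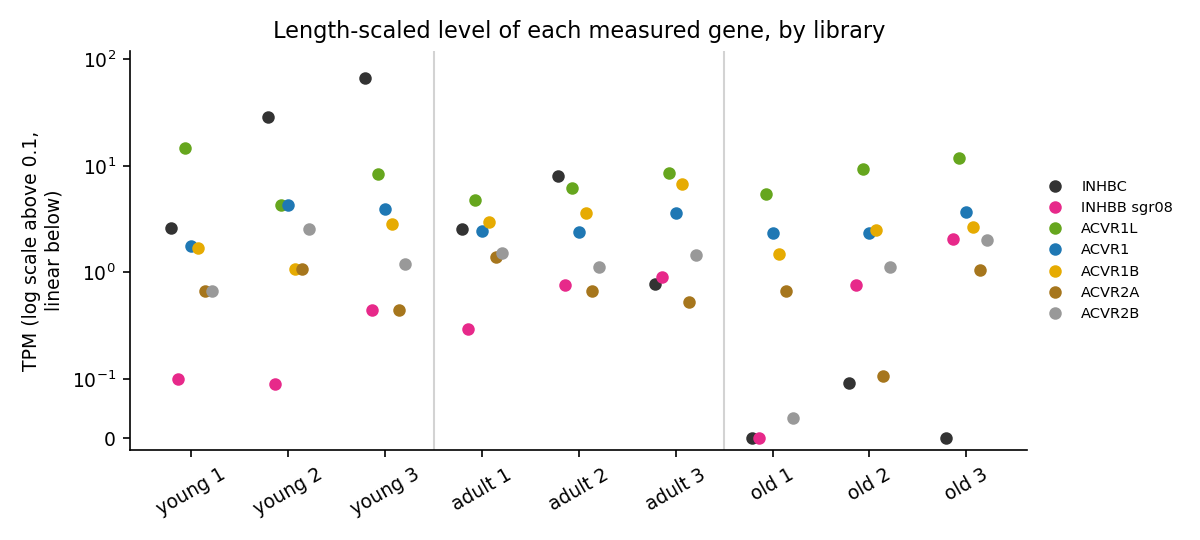
TPM (log scale above 0.1, linear below) of the 7 genes with enough counts to test, in each of the 9 libraries. INHBC is the highest point in young replicates 2 and 3 and adult replicate 2 and is at or near 0 in the old libraries, while ACVR1L stays between 4.3 and 14.6 TPM.

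The type I receptor genes were measured at all 3 ages, apart from ACVR1C, and none of the receptor genes changed in edgeR. ACVR1B (ENSNFUG00015008109, sgr15, 20038380 to 20060633) encodes the main type I receptor for activin. It had 2.78, 1.15 and 3.05 CPM in young, 4.66, 4.68 and 9.5 CPM in adult and 2.47, 3.65 and 4.08 CPM in old replicates 1 to 3. All 3 adult libraries lay above all young and all old ones, and young and old libraries overlapped. Over all genes tested, adult libraries did not overlap with young ones in 21.7% and with old ones in 40.7%. The adult libraries also had the highest exocrine pancreas marker sums, given above, and adult replicates 1 and 3 the highest islet marker sums, 770 and 543 CPM (13 of 13 markers with counts), beside 4.45 CPM in adult replicate 2, 0 to 3 CPM in young and 0 to 159 CPM in old libraries. Their part in the ACVR1B levels was not tested. The mean was 2.33 ± 1.03 CPM in young, 6.28 ± 2.79 in adult and 3.4 ± 0.835 in old fish. The log2 fold change was 1.44 ± 0.55 for adult against young (unadjusted p = 0.0261, edgeR adjusted p = 0.445), -0.88 ± 0.55 for old against adult (0.357) and 0.55 ± 0.55 for old against young (0.69).

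ACVR1 and ACVR1L are type I receptors of the same family that serve mainly bone morphogenetic proteins, the latter in zebrafish. ACVR1 (ENSNFUG00015023751, sgr14, 31017778 to 31037677) was the steadiest, with 5.79, 8.59 and 8.21 CPM in young, 7.06, 5.89 and 9.62 CPM in adult and 7.3, 6.85 and 11 CPM in old replicates 1 to 3. Its ages overlapped in all 3 comparisons, and its log2 fold change for old against young was 0.16 ± 0.38 (edgeR adjusted p = 0.891). ACVR1C, which encodes a further activin and nodal type I receptor, starts 9632 bases beyond the end of ACVR1 on the same strand and had 7 counts, all in adult replicate 3.

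ACVR1L (ENSNFUG00015014779, sgr16, 23715831 to 23719514) had the highest level among the receptor genes, per length, in every library. It had 43.3, 7.77 and 15.4 CPM in young, 12.3, 13.8 and 20.1 CPM in adult and 15.5, 24.3 and 31.7 CPM in old replicates 1 to 3. Young replicate 1, the library with the highest ribosomal RNA share, was the highest of all, and the ages overlapped. The log2 fold change for adult against young was -0.52 ± 0.57 (edgeR adjusted p = 0.824), and 0.42 without young replicate 1. For old against young it was 0.11 ± 0.57 (edgeR adjusted p = 0.953), and 1.04 without young replicate 1. Its last 239 bases overlap D2HGDH on the opposite strand. In all 9 libraries the counts of both genes were fractions that summed to a whole number within 0.01, so these reads were divided between the genes by an estimate. With the 2 genes' counts summed, the log2 fold changes were -0.38 for adult against young, 0.39 for old against adult and 0.02 for old against young.

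The type II receptor genes ACVR2A and ACVR2B, which bind activin first, had lower mean TPM than the type I genes other than ACVR1C. ACVR2A (ENSNFUG00015011205, sgr10, 7769363 to 7857662) had 1.75, 1.74 and 0.737 CPM in young, 3.3, 1.35 and 1.12 CPM in adult and 1.68, 0.254 and 2.5 CPM in old replicates 1 to 3. ACVR2B (ENSNFUG00015018841, sgr09, 26833160 to 26840320) had 1.15, 2.85 and 1.33 CPM in young, 2.39, 1.53 and 2.13 CPM in adult and 0.0561, 1.78 and 3.2 CPM in old replicates 1 to 3. The ages overlapped for both genes, and the old libraries held both extremes of ACVR2B. For old against young the log2 fold change was 0.07 ± 0.87 for ACVR2A (edgeR adjusted p = 0.98) and -0.08 ± 0.99 for ACVR2B (0.98). Summed over both genes, type II receptors were 6.92 to 27.5% of the receptor TPM in young, 9.34 to 22.3% in adult and 7.05 to 14.2% in old libraries. The summed TPM of all 6 receptor genes was 13.3 to 19.4 in young, 13.1 to 21.1 in adult and 9.94 to 21.4 in old libraries, so the ranges overlapped.

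**Figure D3:**
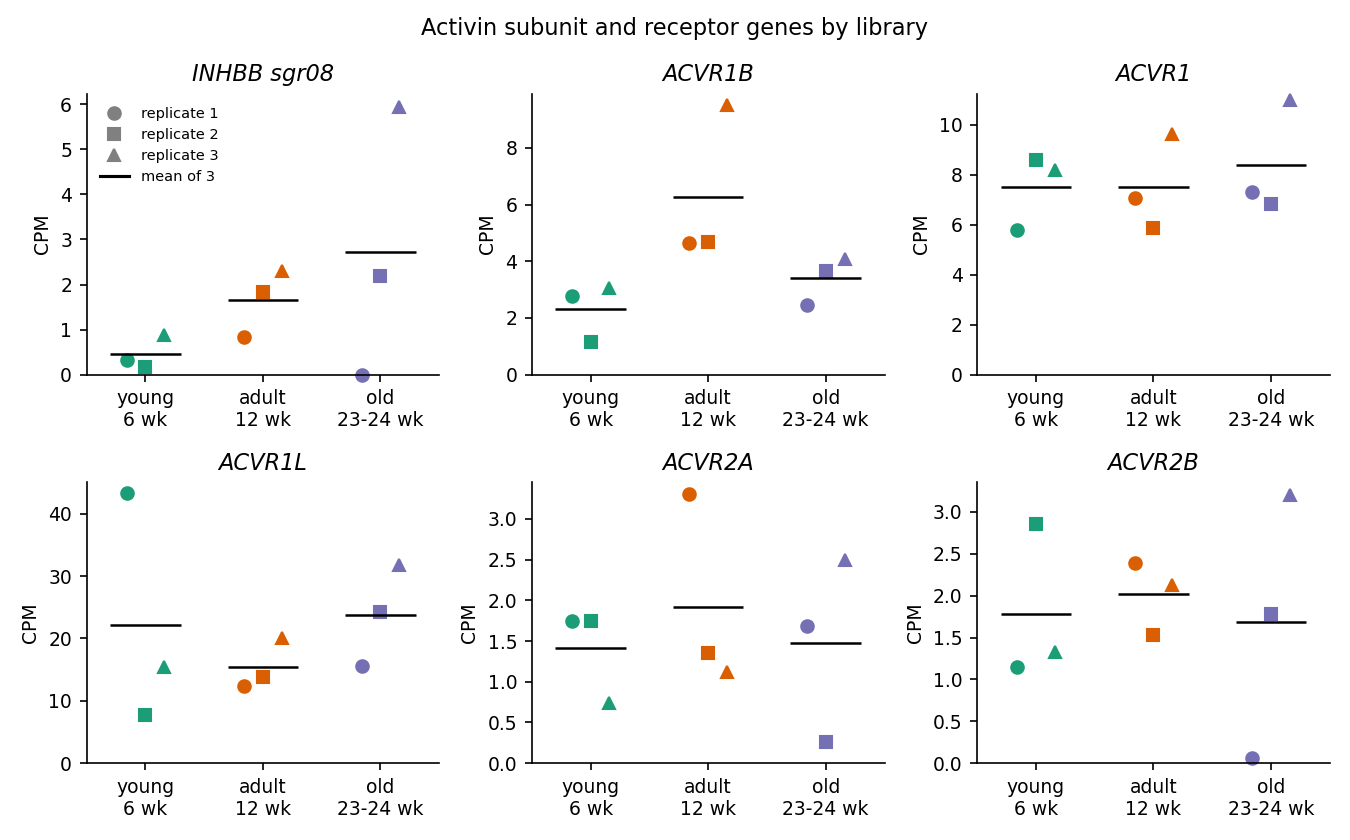
CPM of the 6 tested genes other than INHBC in each library at the 3 ages; symbols mark the replicate and bars the mean of 3. The 3 adult libraries of ACVR1B, at 4.66 to 9.5 CPM, lie above all others, and in the other 5 genes the ages overlap. Over all genes tested, adult libraries did not overlap with young ones in 21.7% and with old ones in 40.7%.

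The genes of the activin-binding proteins were barely detected in the RNA. FSTL3 (sgr17, 31642446 to 31648127) had 23 counts in young replicate 2, 9 in adult replicate 1 and none in the other libraries. The follistatin gene fsta had 9 counts, all in young replicate 1. A count of 0 over the old libraries allows up to 0.0508 CPM of either.

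Ordered by mean TPM over the 9 libraries, INHBC (12.1 ± 22.2, SD over libraries) was followed by ACVR1L (8.18 ± 3.45), ACVR1 (2.98 ± 0.90), ACVR1B (2.85 ± 1.65), ACVR2B (1.30 ± 0.729), ACVR2A (0.735 ± 0.388) and INHBB on sgr08 (0.60 ± 0.633). Each pair of neighbours in this order other than ACVR1L and ACVR1 differed by less than the larger SD of the pair. By the median over libraries INHBC (2.55 TPM) lay below ACVR1L (8.43) and ACVR1B (2.69), and it had the highest level in 3 of the 9 libraries. The remaining 7 genes averaged 0.0793 TPM or less.

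Of the 14 genes, 7 passed the filter on low counts. Among the 6 tested besides INHBC, edgeR called 0 in each comparison, where it called 0.0143% of all genes for adult against young, 0.00716% for old against adult and 0.558% for old against young. DESeq2 and limma-voom also called 0 of the 6. Of all genes DESeq2 called 2.76, 13 and 7.56% in the 3 comparisons and limma-voom 0.0716, 0.00716 and 0.594%. At an unadjusted p under 0.05 in edgeR there was 1 of 6, ACVR1B, for adult against young, and 0 in the other 2 comparisons, against 9.76%, 22.6% and 15.1% of all genes. The median log2 fold change of the 6 was 0.31, -0.05 and 0.13 in the 3 comparisons, beside -0.07, -0.05 and -0.09 over all genes. A miss of the threshold does not show equal levels, and the standard errors of 0.38 to 1.38 on the log2 scale set the precision.

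**Figure D4:**
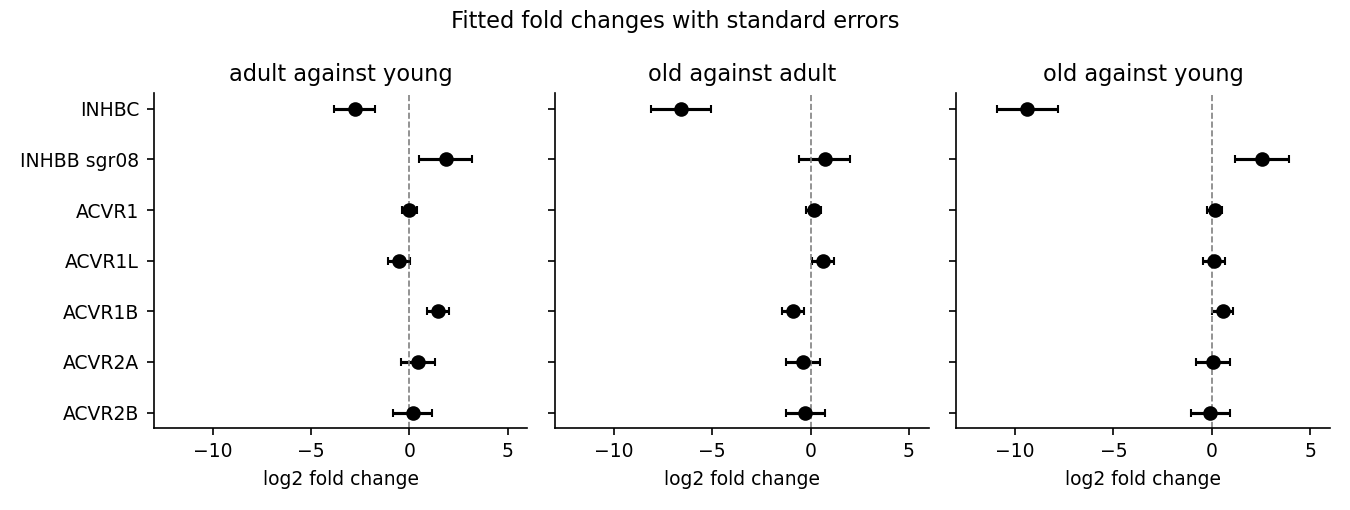
Fitted log2 fold change with its standard error for the 7 tested genes in the 3 comparisons. INHBC lies at -2.78, -6.59 and -9.37, the last 2 resting on 2 counts in old fish, and ACVR1 lies within 0.16 of 0 in all 3.

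Among the other genes of the TGF-beta family pathways, edgeR called none in any comparison. The lists held 92 genes, of which 66 were tested, and 5, 17 and 13 of these (7.58, 25.8 and 19.7%) had an unadjusted p under 0.05 in the comparisons of young with adult, adult with old and young with old fish, beside 9.76, 22.6 and 15.1% of all genes. DESeq2 called 2, 10 and 6 of the 66 (3.03, 15.2 and 9.09%), beside 2.76, 13 and 7.56% of all genes, and limma-voom 0, 0 and 1 (1.52%), beside 0.594% of all genes in the last comparison. For old against adult the count in edgeR was 6 of 69 (8.7%, beside 11.1% of all genes) without young replicate 1 and 4 of 69 (5.8%, beside 1.84%) without old replicate 3. It was 7 of 64 (10.9%, beside 12.8%) on the 2 ages alone. For old against young it was 4 of 69 (5.8%, beside 9.06%) without young replicate 1 and 2 of 69 (2.9%, beside 1.32%) without old replicate 3.

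Of the 26 other ligands, 14 were tested. They had a median log2 fold change of -0.07, 0.32 and 0.68 in the 3 comparisons, with 0 called. The most abundant was a gene named TGFB3 (ENSNFUG00015012658), a transforming growth factor beta, with 35.5 ± 7.41 CPM in young, 39.4 ± 3.01 in adult and 66.6 ± 31.8 in old fish. Its log2 fold changes were 0.15, 0.76 and 0.91 in the 3 comparisons. A 2nd tested gene named TGFB3 went the other way, at -0.21, -1.81 and -2.01. The ligand gene tgfb1a had 20.8, 9.16 and 11.3 CPM in young, 9.53, 7.69 and 8.46 CPM in adult and 32.1, 28.3 and 17.7 CPM in old replicates 1 to 3. Adult and old libraries of tgfb1a did not overlap, as in 40.7% of all genes tested, with a log2 fold change of 1.60 ± 0.39 (edgeR adjusted p = 0.101). Young replicate 1, with the highest ribosomal RNA share, lay within the old range.

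Of 16 other receptor genes 10 were tested, with medians of 0.23, -0.34 and 0.01. TGFBR3, which encodes betaglycan, a co-receptor through which inhibin binds type II receptors, had 110, 14.7 and 41.1 CPM in young, 22.3, 23.9 and 43.2 CPM in adult and 122, 102 and 69.9 CPM in old replicates 1 to 3. Every old library lay above every adult one (log2 fold change 1.72 ± 0.63, edgeR adjusted p = 0.158), and young replicate 1 lay within the range of the old ones. Adult and old libraries did not overlap in 40.7% of all genes tested. The 4 libraries with the highest ribosomal RNA shares, from 7.07 to 29.65%, were also the 4 highest for TGFBR3, and the part of that share was not tested. All 11 SMAD genes were tested, with medians of -0.13, 0.67 and 0.37. The inhibitory smad7 had 15.2 ± 7.55 CPM in young, 13.8 ± 3.65 in adult and 29.5 ± 8.08 in old fish (old against adult 1.1 ± 0.45, edgeR adjusted p = 0.195). The other inhibitory genes, SMAD6A and smad6b, gave log2 fold changes of 2.54 and -0.48 for old against adult, and neither was called.

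Of 24 genes for binding proteins, processing enzymes and brakes of the pathway 17 were tested, with medians of 0.20, -0.11 and -0.01. The protease gene furina, whose mammalian counterpart cleaves precursors of this family, had 30.1, 49.9 and 71.5 CPM in young, 181, 118 and 173 CPM in adult and 20.5, 28.7 and 49.2 CPM in old replicates 1 to 3. All adult libraries lay above all others. Over all genes tested, adult libraries did not overlap with young ones in 21.7% and with old ones in 40.7%. The adult libraries are also those with the highest exocrine pancreas marker sums, at 80310, 7256 and 25270 CPM in adult replicates 1 to 3. The part of these markers in the furina levels was not tested. The log2 fold change of furina was 1.64 ± 0.42 for adult against young (edgeR adjusted p = 0.282) and -2.26 ± 0.43 for old against adult (0.0771). The related gene furinb went the other way, at -1.06 and 0.87, and was not called either. BAMBIA, a decoy receptor, ran from 43 to 90.7 CPM in young, 60.2 to 108 CPM in adult and 45.9 to 85.6 CPM in old libraries.

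Of 19 genes known to respond to SMAD signalling 18 were tested, with medians of -0.32, 0.34 and 0.17. The most abundant, FN1B, had 1490 ± 290 CPM in young, 3290 ± 355 in adult and 3040 ± 653 in old fish. Its log2 fold change for old against young was 1.03 ± 0.27 (edgeR adjusted p = 0.118). A gene named FN1 went the other way, at -3.46, and was not called either. The iron hormone gene hamp, a target of bone morphogenetic protein signalling in hepatocytes, had 107 ± 58.4 CPM in young, 151 ± 64.6 in adult and 319 ± 81.4 in old fish (old against young 1.58 ± 0.48, edgeR adjusted p = 0.164). The collagen gene col1a1b had 65.8, 35 and 754 CPM in young, 131, 76.3 and 65.1 CPM in adult and 16.4, 13.1 and 20.1 CPM in old replicates 1 to 3. Every old library lay below every young and adult one (old against young -4.11 ± 1.03, edgeR adjusted p = 0.107). Over all genes tested, old libraries did not overlap with young ones in 15.6% and with adult ones in 40.7%. The gene col1a1b is also the most abundant of the stellate cell and fibroblast markers above.

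**Figure D5:**
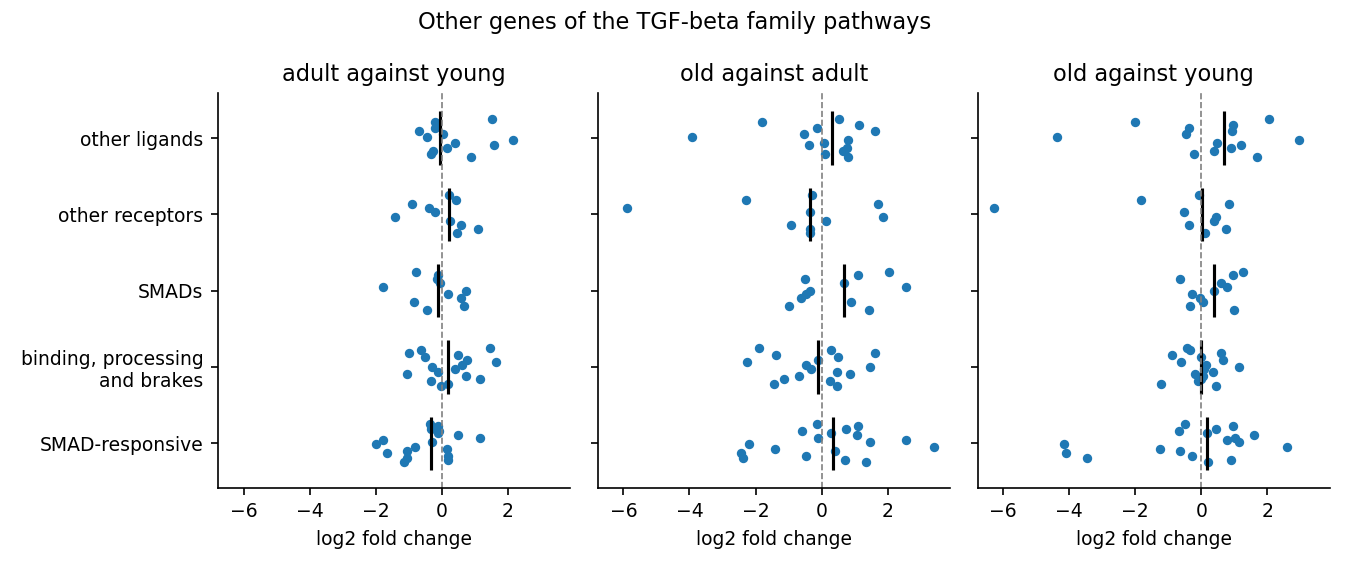
Log2 fold change of each tested gene of 5 lists of other TGF-beta family pathway genes in the 3 comparisons, 1 point a gene, with the list median as a bar. The medians lie between -0.34 and 0.68, and no gene passed the edgeR test.

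Among genes with a name or description, those whose levels followed INHBC most closely were TMEM47, calr, abcf1, MTFP1 and SEPHS1. Pearson's r of log2 CPM with INHBC over the 9 libraries was 0.977, 0.97, 0.97, 0.967 and 0.966. These were the highest of 6861 genes with a name or description and at least 5 CPM on average, of which 36 reached 0.9. Genes with neither were not compared. These are descriptions over 9 libraries that share the same ages. Of the 5 genes, 1 stayed in the top 5 with Spearman's correlation, 3 with a prior count of 0.5, and 2 without young replicate 1, young replicate 3 or old replicate 3. The genes differed from INHBC in the size of their span. TMEM47, a membrane protein gene, had 10.5, 11.7 and 14.6 CPM in young, 9.49, 10.1 and 9.18 CPM in adult and 5.61, 7.0 and 5.8 CPM in old replicates 1 to 3, a 2.59-fold span. The calreticulin-like gene calr, of a family of chaperones in the endoplasmic reticulum, spanned 27.8-fold, from 101 CPM in young replicate 2 to 3.62 CPM in old replicate 3. The other 3 genes spanned 1.89- to 2.38-fold. Among the 6 tested genes of the activin system, r with INHBC lay between -0.48 for ACVR1L and 0.33 for ACVR2B.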

How the data were processed

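The SMART-Seq mRNA Kit was used for these bulk liver libraries, per the labels' protocols. The deposited table gives for each gene and library an estimated count, unscaled between libraries, per the file headers, and TPM, scaled by the authors for gene length and to 1 sum per library, per the file headers. The submitters' processing notes name DRAGEN. Its role and version were not given in the sources used here, nor were the genome build and the annotation.

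Counts were rounded and tested in edgeR 4.0.16 (R 4.3.3) over all genes that passed filterByExpr (13971), with TMM scaling, a robust quasi-likelihood fit of 3 age means to all 9 libraries, and Benjamini-Hochberg adjustment with a threshold of 0.05. The code was tested on simulated data with a smaller spread between libraries than in these data, which checks the code and not its power here. SE is the log2 fold change divided by the square root of F. Alternatives were RLE scaling, library size only, no filter, at least 1 CPM on average, DESeq2 1.42.0, limma-voom 3.58.1, the 2 ages alone, removal of ribosomal RNA and mitochondrial genes, the replicate number as a block and each library left out. The removal of young replicate 1 and old replicate 1 together and the summing of ACVR1L with D2HGDH were chosen after seeing the data.

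Names came from the table or, by Entrez number, from RefSeq (assembly NfurGRZ-RIMD1), where 8 of the 14 genes matched. The genes and lists were chosen with earlier results of these data known. Named were all 14 genes, the most abundant members of each pathway list where none passed the test, not all printed, and the 5 genes most like INHBC (log2 CPM, prior count 2). The neighbours of INHBC and D2HGDH were named for their position, after values were seen. Intervals are exact Clopper-Pearson, and limits for a count of 0 are 3 counts.

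Other marker lists were examined too. Macrophage markers (14 of 14 with counts) summed to 195 to 261 CPM in young, 379 to 616 in adult and 339 to 661 in old libraries. Endothelial markers (11 of 11) summed to 56.4 to 112, 83 to 93.5 and 78 to 83.9 CPM at these ages, and cholangiocyte markers (8 of 8) to 569 to 708, 642 to 738 and 779 to 927 CPM. Gonad markers (6 of 13 with counts) summed to 5.09 to 9.28 CPM, mostly sox9b, with LHCGR, inha, cyp11c1, dazl, dmrt1, star and fshr at 0.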

Additional observations from a re-analysis of the deposited data

How the results depend on the processing

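Leaving INHBC aside, which is described with no test, no gene of the activin system passed the threshold under any alternative run, in any comparison. INHBC was lower in adult than in young and lower in old than in both under every alternative. This direction is a description and no support, since INHBC was chosen on its levels in these same libraries. The fitted log2 fold change of INHBC for adult against young ran from -3.3 to -2.35 under alternatives that kept all libraries or left out young replicate 1 and old replicate 1. Several uncalled values changed sign, and the cause was not tested. For adult against young, ACVR2B was -0.19 with library size only, and without young replicate 1 and old replicate 1 together it was -0.06 and ACVR1L 0.42. For old against adult, INHBB on sgr08 was -0.96 in limma-voom, and ACVR2B 0.31 without those 2 libraries. For old against young, library size only gave ACVR1 -0.18 and ACVR2A -0.21, limma-voom gave ACVR2A -0.33, and ACVR2B was 0.25 without the 2 libraries. Other values crossed 0 with each library, or those 2 together, left out. For adult against young these were ACVR1 (-0.21 to 0.15), ACVR1L (-0.92 to 0.42), ACVR2A (-0.18 to 0.73) and ACVR2B (-0.06 to 0.7, and -0.05 without young replicate 1 alone). For old against adult they were INHBB on sgr08 (-0.61 to 1.3), ACVR1 (-0.11 to 0.36), ACVR2A (-1.02 to 0.24) and ACVR2B (-1.15 to 0.31). For old against young they were ACVR1 (-0.11 to 0.28), ACVR1L (-0.29 to 1.28), ACVR2A (-0.56 to 0.57) and ACVR2B (-0.97 to 0.47). The number of all genes changed was 2, 1 and 78 in the 3 comparisons and ran from 0 to 386, 0 to 1811 and 2 to 1321 over the alternatives. Without edgeR's filter on low counts 2 of 84 pathway genes (2.38%) were called for old against adult, beside 0.35% of all genes.

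The labels do not say that replicate numbers pair the libraries. The correlations of same-numbered deviations ran from -0.05 to 0.21. With 3 libraries for each age, these values cannot show whether same-numbered libraries share a batch. With the number as a block, 0 genes of the activin system were called in each comparison, beside 0, 0 and 0.322% of all genes. In that fit ACVR2A for old against young was -0.1. Of the 5 genes most like INHBC, 1 stayed in the top 5 with Spearman's correlation, 3 with a prior count of 0.5, 3 with deposited TPM and 2 to 5 with each library left out. FSTL3, fsta, INHBA and ACVR1C rest on 6 to 32 counts each and were not tested by age in the main fit. Without the filter on low counts, 11 genes of the activin system other than INHBC were tested, and 0 were called in each comparison. Of all genes 0.0614, 0.35 and 0.619% were called in the 3 comparisons of that run.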
